A study of Mus musculus with 12 samples.

Results

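The genes described here are 43 interferon and inflammatory signalling genes, taken by their symbol from a fixed list of interferon receptors, regulators and response genes and of NF-kB, Toll-like and cytokine genes. All 43 were found among the 22548 genes of the table. They comprise 4 interferon receptors, 5 Janus kinases and STATs, 7 interferon regulatory factors, 9 interferon response genes, 2 cytosolic RNA sensors, 6 NF-kB genes, 7 cytokines and cytokine receptors, and 3 Toll-like pathway genes. Their RNA was measured in 12 RNA-seq samples of long-term hematopoietic stem cells (HSCs) sorted from C57BL/6 mice. Young HSCs (n = 4, replicates 2 to 5) came from mice of 2 to 4 months, and aged HSCs (n = 5, replicates 0 and 2 to 5) from mice of 20 to 26 months. Aged CASIN-treated HSCs (n = 3, replicates 1 to 3) came from mice of the older age and received 5 µM CASIN, an inhibitor of the small GTPase Cdc42. No genetic change or transgene is given for any group. Cells of all groups were kept for 16 h in buffer with 10% serum at 37 °C, 3% O2 and 5% CO2, so that no group was sampled straight from the marrow. The labels give at least 200 sorted cells per library, and the study's methods a larger number of pooled cells.

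Interferons bind paired receptor chains on the cell surface. The receptors activate Janus kinases, which phosphorylate STAT proteins, and STAT2 together with IRF9 binds a short element in the promoters of response genes, the interferon-stimulated response element (ISRE). Cytosolic sensors such as MDA5 and RIG-I detect foreign RNA and switch on interferon production, whereas Toll-like receptors, the interleukin 1 receptor and tumour necrosis factor receptors signal to NF-kB. In HSCs, interferons and inflammatory cytokines are known to drive quiescent cells into division, and inflammatory signalling in the marrow is known to increase with age.

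The promoters of 38 of the 43 genes were held in a RefSeq table (GRCm38.p6) that spans 250 bases before to 50 bases after each gene's start. Mx1, Usp18, Nfkb1, Relb and Tlr4 have no entry. The core of the ISRE was searched on both strands as GAAANNGAAA. It was present in 10 of the 38 promoters (26.3%), compared with 3.87% of the 16492 genes that are in both tables and 3.44% of all 32851 promoters. The 10 genes were Stat2, Irf2, Isg15, Ifit1, Ifit3, Rsad2, Ddx58, Ifih1, Tnfrsf1b and Myd88. Of these 10 genes, 5 were detected in all 12 samples, against 2 of the 28 genes without the core. Interferon response genes are in the list by choice, and 4 of these 5 genes belong to them. The shares within the list thus partly restate its make-up. Over all genes no such contrast was seen, 8.9% of genes with the core and 9.5% of those without it being detected in all samples. The consensus NF-kB site was also present in 10 of the 38 promoters (26.3%), compared with 10.81% of genes, and none of those 10 genes was detected in all samples. Over all genes, 11.7% of those with the NF-kB site and 9.2% of those without it were. A match describes the letters of the window and does not show that a factor binds there. The stretches of 60 bases around the matches are given for the 4 response genes with the core that were detected in every sample, on the strand of the gene, with the GAAA blocks of the core, or their complement TTTC, in capitals.
Isg15: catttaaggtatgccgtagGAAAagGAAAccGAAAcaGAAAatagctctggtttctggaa
Ifit1: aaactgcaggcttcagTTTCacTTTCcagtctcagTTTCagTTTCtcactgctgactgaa
Ifit3: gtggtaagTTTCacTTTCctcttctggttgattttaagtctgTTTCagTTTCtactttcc
Rsad2: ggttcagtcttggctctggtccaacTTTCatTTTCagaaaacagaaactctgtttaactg
The stretch of Isg15 lies at chr4:156200856-156200915 on the minus strand and holds 3 overlapping matches in one run. That of Ifit1 lies at chr19:34640769-34640828 on the plus strand, with 2 separate matches. That of Ifit3 lies at chr19:34583365-34583424 on the plus strand, also with 2 separate matches. The stretch of Rsad2 lies at chr12:26456538-26456597 on the minus strand and has a single match.

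The values are log2 expression values deposited by the authors after quantile normalization, which gives all samples 1 distribution. A gene that a library did not detect stands at the lowest value of that sample, which was between 0 and 0.67, and a gene above it is called detected here. The depth of the libraries is unknown, and detection differed widely between them: 27.0% to 42.9% of all genes were detected in young samples, 50.8% to 78.1% in aged samples, and 30.4%, 88.8% and 32.3% in CASIN replicates 1, 2 and 3. CASIN replicate 2 thus stands apart from the other CASIN-treated samples, and the main results that involve CASIN are also given without it. Of the 9 HSC markers examined, between 2 and 5 were detected in young, 5 and 9 in aged and 3 and 9 in CASIN-treated samples. Their summed level was 7.66 to 9.02 (log2) in young, 4.68 to 7.87 in aged and 8.01 to 8.96 in CASIN-treated samples. Kit and Ly6a, 2 of the genes that encode the sorted surface antigens, stood at the lowest value in all 4 young samples. Hlf, by contrast, was detected in all 4 of them, at 4.11 to 8.59. The sort took cells low or negative for CD34 and Flk2, whose genes Cd34 and Flt3 served as multipotent progenitor markers. Flt3 was detected in 1 of 4 young (6.08), 5 of 5 aged (1.57 to 5.30) and 1 of 3 CASIN-treated samples (2.26). Cd34 was detected in 1 of 4 young, 4 of 5 aged and 1 of 3 CASIN-treated samples, at up to 2.22, 5.23 and 2.05. Of the 7 myeloid markers in the table, 2 to 3 were detected in young, 3 to 5 in aged and 2 to 6 in CASIN-treated samples, and their summed level was 7.65 to 8.93 (log2), 8.53 to 9.17 and 8.55 to 9.20. Nearly all of that sum was Itgam, which was detected in all 12 samples, at 7.48 to 8.82 in young, 7.76 to 9.15 in aged and 8.53 to 9.17 in CASIN-treated samples. The other markers differed in direction. Mpo and Elane stood at the lowest value in all young samples. Lyz2, S100a8 and Csf1r reached 4.37, 4.11 and 4.11 in young and 1.01, 1.52 and 3.82 in aged samples. S100a9 reached 4.50 in young and was detected in no aged sample. Of 4 B cell markers, 0 to 2 were detected in young, 2 to 4 in aged and 1 to 4 in CASIN-treated samples. For 4 erythroid markers the counts were 0 to 2, 1 to 3 and 0 to 1. Of 4 T cell markers, Cd8a was detected in all 12 samples and Cd5 in none, and Lck in no young sample. The products of Itgam, Cd8a and Cd5 were among the antigens used for lineage depletion before the sort. The part of such transcripts in the results was not tested. In such bulk samples, fewer cells of a type and less RNA per cell cannot be told apart.

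Detection of the interferon and inflammatory genes followed the detection of all genes. Of the 43 genes, 10, 23, 21 and 15 were detected in young replicates 2 to 5, and 37, 39, 29, 30 and 26 in aged replicates 0 and 2 to 5. CASIN replicates 1 and 3 detected 22 and 21 of them, and CASIN replicate 2 detected all 43. Over the samples of a group, 40.1% of the gene values were detected in young, 74.9% in aged and 66.7% in CASIN-treated HSCs, whereas for all genes these percentages were 34.3, 62.6 and 50.5. Without CASIN replicate 2, the CASIN-treated percentages were 50 for these genes and 31.3 for all genes. Above a log2 value of 3 the groups no longer followed this order. There, 35.5% of the members' values in young, 34.9% in aged and 41.9% in CASIN-treated samples were found, beside 29.2%, 30.5% and 30.9% for all genes, a share that the normalization itself holds nearly constant. In CASIN replicates 1 and 3 alone, 50% of the members' values and 31.3% of all genes' values lay above 3. Most of what the aged samples detected in addition therefore lay below a log2 value of 3, a range in which some young samples report no value at all: the lowest detected value of any gene was 3.62 in young replicate 2 and 3.24 in young replicate 5, but 0.39 or less in aged replicates 0 and 2.

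**Figure D1:**
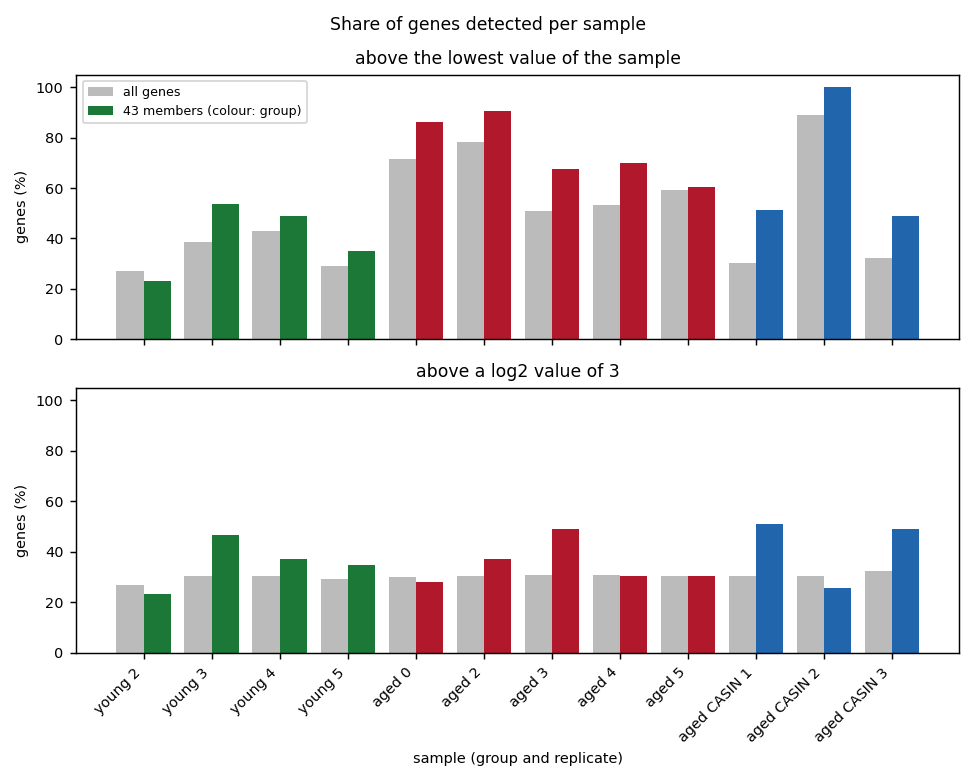
Percentage of genes above the lowest value of each sample (top) and above a log2 value of 3 (bottom), for all 22548 genes (grey bars) and the 43 interferon and inflammatory genes (coloured by group), with 1 pair of bars per sample. The coloured bars follow the grey bars in the top panel, with the highest share in CASIN replicate 2, and in the bottom panel the grey bars stay between 27.0% and 32.2%.

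The groups of genes differed in how they were detected. The receptors and response genes were detected in all groups, at 68.8%, 80% and 75% of receptor values and 75%, 82.2% and 77.8% of response gene values in young, aged and CASIN-treated samples. By contrast, the interferon regulatory factors were detected in 17.9% of their values in young, 71.4% in aged and 47.6% in CASIN-treated samples. For the RNA sensors the percentages were 12.5, 90 and 50. In CASIN replicates 1 and 3 alone the percentages were 62.5 for the receptors, 66.7 for the response genes, 21.4 for the regulatory factors and 25 for the sensors. Above a log2 value of 3 the regulatory factors were at 17.9%, 25.7% and 19% and the response genes at 66.7%, 53.3% and 59.3%. The sensors kept a higher share in aged samples there, at 12.5%, 60% and 16.7%. These percentages are descriptions, and no test was made between the groups of genes.

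**Figure D2:**
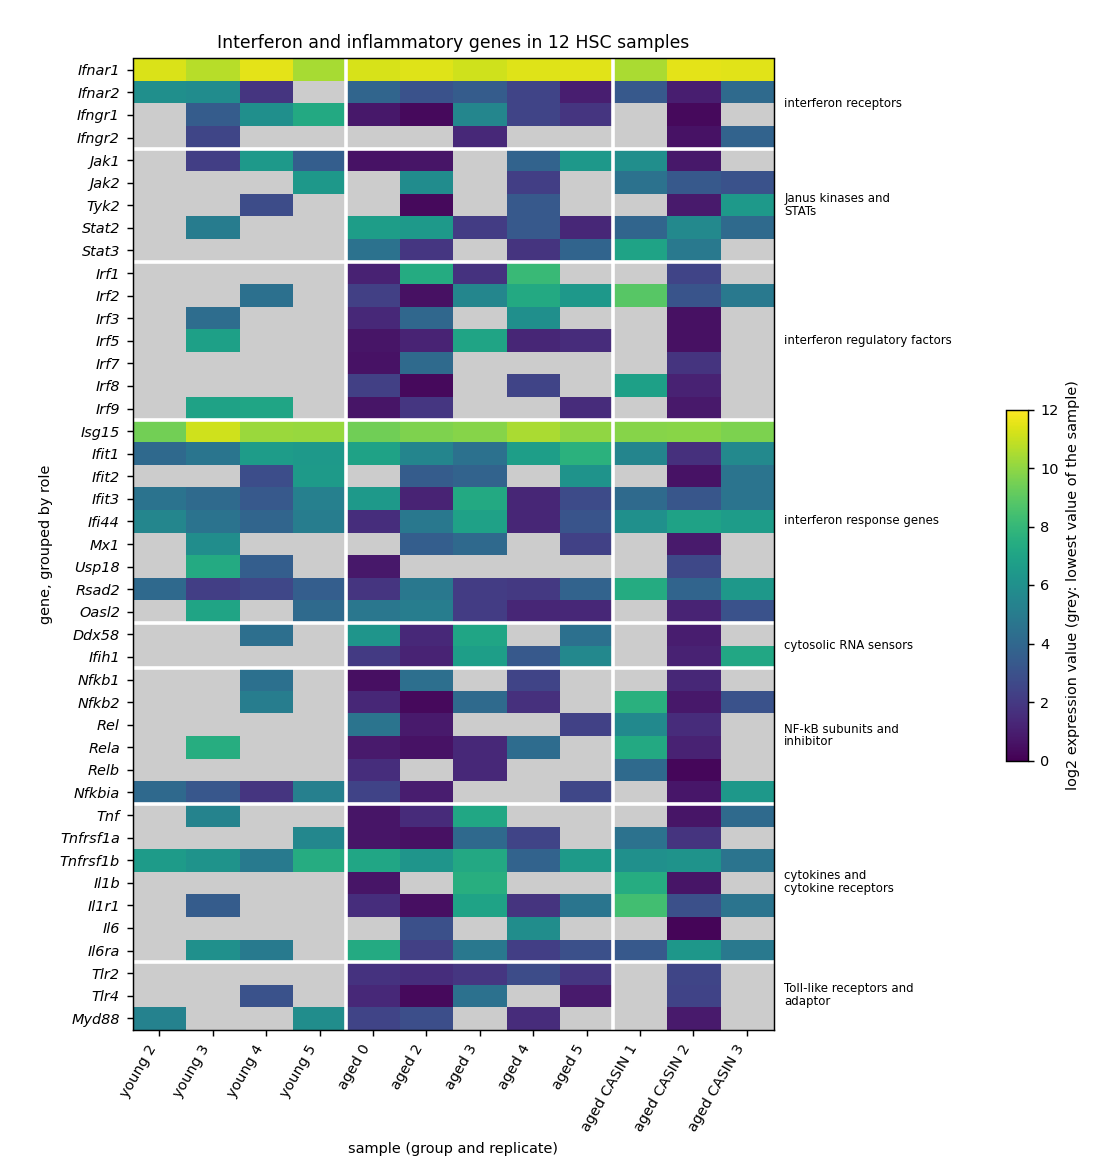
Deposited log2 values of the 43 genes (rows, ordered by role) in the 12 samples (columns, by group and replicate), with grey for a gene at the lowest value of its sample. Ifnar1 and Isg15 are high in every sample, whereas most other genes are at or near the lowest value in several samples of each group.

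Only 7 of the 43 genes (16.3%) were detected in all 12 samples, compared with 2143 of all genes (9.5%). They were the receptor chain Ifnar1, the response genes Isg15, Ifit1, Ifit3, Ifi44 and Rsad2, and the tumour necrosis factor receptor Tnfrsf1b. Ifnar1 (chromosome 16, 91485238 to 91507441, plus strand, mm10) encodes a chain of the type I interferon receptor. Its log2 values were 11.32, 10.70, 11.53 and 10.45 in young, 11.27, 11.42, 11.12, 11.40 and 11.47 in aged, and 10.47, 11.53 and 11.47 in CASIN-treated samples. The groups overlapped fully. Young HSCs had a mean of 11 ± 0.51 (SD, n = 4). The mean was 11.34 ± 0.14 (SD, n = 5) for aged HSCs and 11.16 ± 0.60 (SD, n = 3) with CASIN. The partner chain Ifnar2, encoded next to it on chromosome 16, was detected in 11 of 12 samples, at up to 5.96 in young, 3.93 in aged and 4.15 in CASIN-treated HSCs.

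Isg15 (chromosome 4, 156199424 to 156200818, minus strand, mm10) encodes a ubiquitin-like protein that is attached to other proteins after interferon exposure. It stood at 9.43, 11.12, 10.18 and 10.14 in young, at 9.41, 9.68, 9.81, 10.49 and 9.99 in aged, and at 9.83, 9.88 and 9.65 in CASIN-treated samples. All 12 samples therefore carried a high Isg15 value, and every CASIN-treated value lay within the range of the aged values. Between replicates, Ifnar1 and Isg15 varied little: their pooled standard deviations within groups were 0.42 and 0.49, and only 3.8% and 5.9% of the 2143 genes detected in all samples had smaller ones. Those genes were not matched for level, and the part of level in the small spread was not tested. Their median was 1.27. The other response genes varied as much as or more than this, with 1.33 for Rsad2, 1.54 for Ifit1, 1.61 for Ifi44 and 2.00 for Ifit3.

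Ifit1 and Ifit3 encode tetratricopeptide proteins that bind viral RNA or its sensors and lie close together on chromosome 19. Ifit1 values were 4.11, 4.65, 6.65 and 6.47 in young, 6.93, 5.47, 4.47, 6.72 and 7.65 in aged, and 5.44, 1.68 and 5.67 in CASIN-treated samples. CASIN replicate 2 held the lowest of these, and otherwise the groups overlapped. Ifit3 values were 4.55, 4.16, 3.35 and 5.23 in young, 6.43, 1.20, 7.28, 1.30 and 2.76 in aged, and 4.15, 3.22 and 4.62 in CASIN-treated samples. The aged samples lay both above and below all others. Ifit3 has a close copy in the mouse genome, Ifit3b, and how reads were divided between them is not stated, so its values are uncertain. Tnfrsf1b, a receptor for tumour necrosis factor, stood at 6.60, 6.18, 4.94 and 7.45 in young, 7.12, 6.24, 7.26, 3.82 and 6.56 in aged, and 6.02, 6.15 and 4.62 in CASIN-treated samples, again with overlapping groups.

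**Figure D3:**
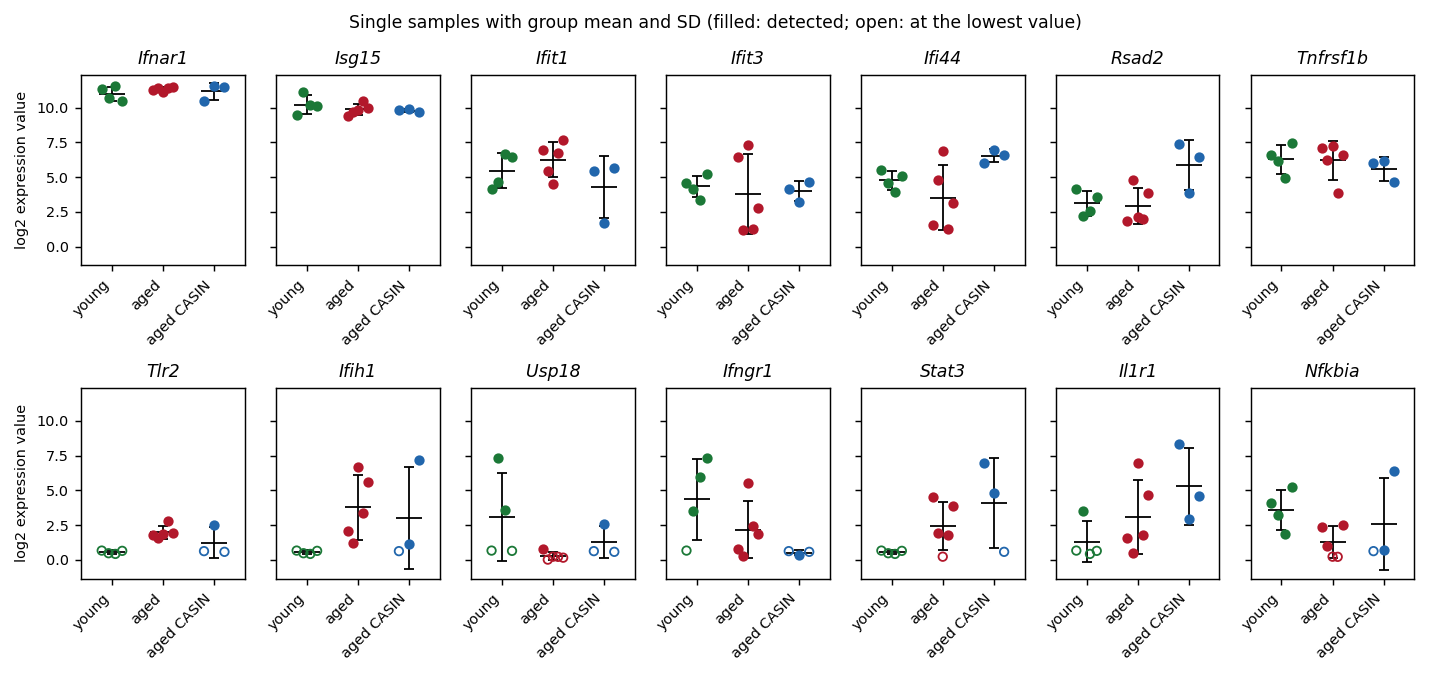
Log2 values of named interferon and inflammatory genes in each sample (points) by group, with the group mean as a line and the standard deviation as an error bar. Open points stand at the lowest value of their sample. Ifnar1 and Isg15 are the tightest, while genes such as Ifih1, Stat3 and Il1r1 run from the lowest value to above 6.

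The comparison of young with aged HSCs asks which genes differ with age. The genes with an unadjusted limma p under 0.05 were the Toll-like receptor gene Tlr2, the RNA sensor gene Ifih1 and the interferon antagonist gene Usp18. No young sample detected Tlr2 or Ifih1 and every aged sample did, in part at values too low for some young samples to have shown. The mean of Usp18 was higher in young HSCs, with overlapping groups. No interferon or inflammatory gene passed the Benjamini-Hochberg adjusted p of 0.05 in limma, the smallest adjusted p among the 43 being 0.764, and over all genes 4 did (0.0177%). At an unadjusted limma p under 0.05 there were 3 of 43 (6.98%), which is near the 5.33% of all genes, with 1 higher in young (2.13% of all genes) and 2 lower (3.20%). The median log2 difference, young minus aged, was -0.12 over the 43 genes, with 20 above and 23 below 0, and -0.02 over all genes. This split was 27 above and 16 below 0 (median 0.33) when medians of genes found in every sample were set equal, and 15 above and 28 below (median -0.59) with detection as a covariate.

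TLR2 recognises bacterial lipoproteins. Tlr2 (chromosome 3, 83836272 to 83841767, minus strand, mm10) stood at the lowest value in all 4 young samples and at 1.77, 1.58, 1.88, 2.79 and 1.90 in aged replicates 0 and 2 to 5. The groups did not overlap. The difference was -1.42 (standard error 0.47, 95% interval -2.45 to -0.40, limma p = 0.0111, adjusted p = 0.764), and an exact two-sided permutation test gave p = 0.00794, the smallest that 4 samples against 5 allow. All 5 aged values, however, lie below the lowest detected value of any gene in young replicates 2 and 5, so that those samples could not have shown Tlr2 at this level. Tlr2 also lost its unadjusted p under 0.05 among genes detected in at least 6 samples, with limma-trend and with detection as a covariate (-0.89). In CASIN-treated HSCs Tlr2 was detected only in replicate 2, at 2.50.

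Ifih1 (chromosome 2, 62595798 to 62646255, minus strand, mm10) encodes MDA5, a sensor of long double-stranded RNA. It also stood at the lowest value in all young samples, and at 2.05, 1.20, 6.71, 3.35 and 5.61 in aged samples. The groups did not overlap, but the lowest aged value, 1.20, lies below the lowest detected value of any gene in each of the 4 young samples, 3.62, 1.97, 1.58 and 3.24. The difference was -3.22 (standard error 1.45, 95% interval -6.43 to -0.01, limma p = 0.0492, adjusted p = 0.764, exact permutation p = 0.0238). In CASIN-treated HSCs Ifih1 was at the lowest value in replicate 1, at 1.15 in replicate 2 and at 7.20 in replicate 3. Detection in every aged and no young sample was found for these 2 of the 43 genes (4.65%), compared with 1.48% of all genes. The other RNA sensor, Ddx58 (RIG-I), was detected in 1 of 4 young, 4 of 5 aged and 1 of 3 CASIN-treated samples, with a difference of -2.33 (95% interval -5.48 to 0.82) between young and aged.

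USP18 removes ISG15 from proteins and dampens signalling at the type I receptor. Usp18 was at 7.33 and 3.58 in young replicates 3 and 4 and at the lowest value in young replicates 2 and 5. Among aged samples it was detected in replicate 0 alone, at 0.75, and among CASIN-treated samples in replicate 2 alone, at 2.58. The groups overlapped, since 2 young samples stood within the range of the aged values. The difference was 2.78 (standard error 1.21, 95% interval 0.12 to 5.45, limma p = 0.0423, adjusted p = 0.764, exact permutation p = 0.0238). Without young replicate 3 it was 1.36 and no longer had an unadjusted limma p under 0.05. The locus overlaps the predicted gene Gm44148 on the opposite strand, and the use of strand in counting is not stated.

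Other genes of the list that no young sample detected were Stat3, Irf1, Irf7, Irf8, Rel, Relb, Il1b and Il6. None of them was detected in all 5 aged samples. At least 1 young sample detected 33 of the 43 genes, beside 14742 of all 22548 genes. Absence from every young sample was thus less common among the listed genes than among all genes. Irf1, a factor induced by interferon gamma, was at 7.39 and 8.12 in aged replicates 2 and 4 but at 1.78 or below in the other aged samples, and the difference of -3.16 had a 95% interval of -6.67 to 0.34. Irf9, the partner of STAT2, ran the other way, at 6.92 and 7.06 in young replicates 3 and 4 and at up to 1.90 in aged samples (difference 2.91, 95% interval -0.10 to 5.92). Its partner had the opposite sign. Stat2 was detected in all 5 aged samples, at 6.68, 6.47, 2.15, 3.35 and 1.32, and in young replicate 3 alone, at 5.04 (difference -2.30, 95% interval -5.25 to 0.66). CASIN replicates 1 to 3 stood at 3.92, 5.63 and 4.15. Irf2, a factor that competes with IRF1, was likewise detected in every aged sample, at 2.26, 0.56, 5.53, 7.29 and 6.39, and in young replicate 4 alone, at 4.43. With CASIN it stood at 8.90, 3.11 and 4.85. Neither Stat2 nor Irf2 had an unadjusted limma p under 0.05 for age (0.115 and 0.110).

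Nfkbia, which encodes the NF-kB inhibitor IkBa, was the NF-kB gene most evenly detected in young HSCs, at 4.11, 3.24, 1.84 and 5.23. In aged samples it was at 2.40, 0.98 and 2.54 in replicates 0, 2 and 5 and at the lowest value in replicates 3 and 4. Among CASIN-treated samples it was at the lowest value in replicate 1, at 0.73 in replicate 2 and at 6.42 in replicate 3. The difference of 2.33 had a 95% interval of -0.35 to 5.01 (limma p = 0.0822, adjusted p = 0.764), and an exact permutation test gave p = 0.0476. Myd88, the adaptor of most Toll-like receptors, was at 5.33 and 5.86 in young replicates 2 and 5 and at the lowest value in the others, and at 2.48, 2.86 and 1.53 in aged replicates 0, 2 and 4 and the lowest value in the others (difference 1.57, 95% interval -1.09 to 4.24). CASIN replicate 2 alone of the treated samples detected it, at 0.89.

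The interval of the difference between young and aged HSCs was -1.17 to 0.50 for Ifnar1, -0.56 to 1.24 for Isg15 and -1.62 to 1.80 for Tnfrsf1b. With Relb these were the 4 genes of 43 whose interval lay wholly within 2 log2 units of 0. Relb, however, was detected in no young and in 2 of 5 aged samples, at up to 1.57. Its interval therefore mostly describes lowest values. The median width of the intervals was 5.50 log2 units (1.67 to 7.87), so the size of most differences was poorly determined. When the median of the genes found in every sample was set equal, all differences between young and aged HSCs moved up by 0.45, which turned that of Ifnar1 to 0.12. The unadjusted calls then became 3 higher in young (Irf9, Nfkbia and Usp18) and none lower, so that Tlr2 (-0.97) and Ifih1 (-2.77) lost theirs. Over all 22548 genes, 1448 had an unadjusted limma p under 0.05 in that fit.

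The comparison of aged CASIN-treated with aged HSCs asks what CASIN alters in aged cells. The response genes Rsad2 and Ifi44 had higher means with CASIN, whereas Isg15 and Ifit1 did not. No member passed the adjusted p in limma (smallest 0.948), and over all genes 5 did (0.0222%). At an unadjusted p under 0.05 there were 2 of 43 (4.65%), close to the 4.40% of all genes. Both were higher (2.48% of all genes) and none was lower (1.92%). The median difference, CASIN-treated minus aged, was 0.05 with 22 genes above and 21 below 0, and -0.04 over all genes. With equal medians of genes found in every sample, 28 genes were above and 15 below 0 (median 0.40). Without CASIN replicate 2 the median was 0.19, with 24 above and 19 below 0, and the unadjusted calls were Rsad2 and Nfkb2 (3.80) higher and Tlr2 (-1.38) lower with CASIN, the smallest adjusted p being 0.232 in limma. Over all 22548 genes, 1619 then had an unadjusted limma p under 0.05 and 51 passed the adjusted p.

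Rsad2 (chromosome 12, 26442746 to 26456452, minus strand, mm10) encodes viperin, an antiviral enzyme. It stood at 1.84, 4.80, 2.15, 1.97 and 3.82 in aged and at 7.37, 3.85 and 6.42 in CASIN-treated samples. CASIN replicates 1 and 3 lay above every aged sample and replicate 2 within the aged range. The difference was 2.96 (standard error 0.94, 95% interval 0.88 to 5.04, limma p = 0.00963, adjusted p = 0.948, exact permutation p = 0.0536). Without CASIN replicate 2 it was 3.97 (limma adjusted p = 0.232), and without CASIN replicate 1 it was 2.22 and no longer had an unadjusted p under 0.05.

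Ifi44 (chromosome 3, 151730922 to 151749960, minus strand, mm10) encodes an interferon-induced protein whose molecular role is less well known. Its values were 1.57, 4.79, 6.86, 1.30 and 3.11 in aged and 6.02, 6.93 and 6.62 in CASIN-treated samples. Aged replicate 3 lay within the CASIN-treated values and the 4 other aged samples below them. The difference was 3.00 (standard error 1.12, 95% interval 0.52 to 5.48, limma p = 0.0221, adjusted p = 0.948, exact permutation p = 0.0893). Without CASIN replicate 2 it was 2.79, and without replicate 3 it was 2.95, in neither case with an unadjusted limma p under 0.05.

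The other response genes did not share this pattern. Ifit1 had a difference of -1.98 (95% interval -4.35 to 0.39) that was -0.69 without CASIN replicate 2, Ifit3 one of 0.20 (95% interval -2.83 to 3.23) that was 0.59, and Isg15 one of -0.09 (95% interval -1.07 to 0.89) that was -0.13. Over the 9 response genes 4 differences were above and 5 below 0, with a median of -0.09. The Janus kinases and STATs were all above 0, with a median of 1.66 (1.30 without CASIN replicate 2), although none had an unadjusted limma p under 0.05. Of these, Stat3 was at 4.50, 1.90, 1.80 and 3.88 in aged replicates 0, 2, 4 and 5 and at 6.94 and 4.84 in CASIN replicates 1 and 2 (difference 1.66, 95% interval -1.25 to 4.56, and 1.30 without CASIN replicate 2). The 3 Toll-like genes were all below 0, with a median of -0.75 (-0.85 without CASIN replicate 2). CASIN replicates 1 and 3 detected none of the 3, so the latter median sets their lowest values against the aged values. The aged medians of Tlr4 and Myd88, 0.89 and 1.53, lay below the lowest detected value of any gene in both samples. Ifnar1 differed by -0.18 (95% interval -1.09 to 0.73), and by -0.37 without CASIN replicate 2. Isg15, Ifnar1, Irf7 and Tlr2 were the 4 genes whose interval lay within 2 log2 units of 0, and the median width was 5.98. Irf7 was detected in only 2 of 5 aged and 1 of 3 CASIN-treated samples, so its interval mostly describes lowest values. That the interval of Tlr2 lay within these bounds rested on CASIN replicate 2, the only CASIN-treated sample that detected it. Without it the difference was -1.38 (95% interval -2.29 to -0.48, limma adjusted p = 0.483), with the other CASIN-treated samples at their lowest values of 0.63 and 0.58. The lowest detected value of any gene was 2.94 in CASIN replicate 1 and 2.58 in CASIN replicate 3. Every aged Tlr2 value lies below the former, and all but that of aged replicate 4 (2.79) lie below the latter. Those samples could therefore hardly have shown Tlr2 at the aged level.

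The third comparison sets young beside aged CASIN-treated HSCs. It uses the same young and CASIN-treated samples as the others, so its values are no separate evidence. Stat3, Rsad2 and Il1r1 had lower means and Ifngr1 a higher mean in young HSCs. No gene passed the adjusted p in limma, among the 43 or among all genes (0.00%), the smallest over all genes being 0.0701, while 968 of all genes had an unadjusted p under 0.05. Of the 43 genes, 4 (9.3%) had an unadjusted p under 0.05, compared with 4.29% of all genes. One was higher in young (1.39% of all genes) and 3 were lower (2.90%). The median difference, young minus CASIN-treated, was -0.16 over the 43 genes and 0.09 over all genes. Without CASIN replicate 2 it was -0.06 over the 43 genes, and the unadjusted calls were Il1r1, Irf2 and Rsad2, all lower in young HSCs. Over all 22548 genes, 1312 then had an unadjusted limma p under 0.05 and 45 passed the adjusted p, while the smallest adjusted p among the 43 was 0.322.

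Ifngr1 encodes the ligand-binding chain of the interferon gamma receptor. It stood at the lowest value in young replicate 2 and at 3.51, 5.96 and 7.30 in young replicates 3 to 5, at 0.75, 0.29, 5.53, 2.46 and 1.84 in aged samples, and in CASIN-treated samples it was detected only in replicate 2, at 0.32. Young replicate 2 and CASIN replicates 1 and 3 did not detect the gene, and only the different lowest values of these samples keep the groups from tying. The difference was 3.86 (standard error 1.56, 95% interval 0.42 to 7.29, limma p = 0.0312, adjusted p = 1, exact permutation p = 0.0571). Without any 1 of the CASIN replicates, or without young replicate 4 or 5, it was 2.87 to 3.92 and no longer had an unadjusted limma p under 0.05, the value without CASIN replicate 2 being 3.76.

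Stat3, which carries signals of the interleukin 6 family, was at the lowest value in all 4 young samples and in CASIN replicate 3. The difference was -3.56 (95% interval -6.60 to -0.52, limma p = 0.0257, adjusted p = 1, exact permutation p = 0.0857). It was -2.15 without CASIN replicate 1 and -3.20 without CASIN replicate 2, in neither case with an unadjusted limma p under 0.05, and -5.33 without CASIN replicate 3. The gene overlaps Stat5a on the opposite strand. Il1r1, the signalling receptor of interleukin 1, was detected in young replicate 3 alone, at 3.51, and stood at 1.57, 0.51, 6.98, 1.80 and 4.65 in aged and at 8.36, 2.92 and 4.62 in CASIN-treated samples. Its difference was -3.98 (95% interval -7.70 to -0.27, limma p = 0.0378, adjusted p = 1, exact permutation p = 0.0857), and it was -5.17 without CASIN replicate 2. Without CASIN replicate 1 it was -2.45, and without that sample, CASIN replicate 3 or young replicate 2, 4 or 5 it no longer had an unadjusted limma p under 0.05. Young replicate 3 was above CASIN replicate 2 for this gene, so the groups overlapped.

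Rsad2 in young HSCs stood at 4.11, 2.22, 2.54 and 3.59, close to the aged values, with a difference from CASIN-treated HSCs of -2.76 (95% interval -4.93 to -0.59, limma p = 0.0175, adjusted p = 1, exact permutation p = 0.0571) and of -3.78 without CASIN replicate 2. Without CASIN replicate 1 or 3 it was -2.02 or -2.49 and had no unadjusted limma p under 0.05. Ifi44 stood at 5.49, 4.56, 3.93 and 5.09 in young samples, all below the CASIN-treated ones. This gave an exact permutation p of 0.0286, the smallest possible for 4 samples against 3, whereas the limma difference of -1.76 had a 95% interval of -4.35 to 0.83 and was -1.55 without CASIN replicate 2.

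**Figure D4:**
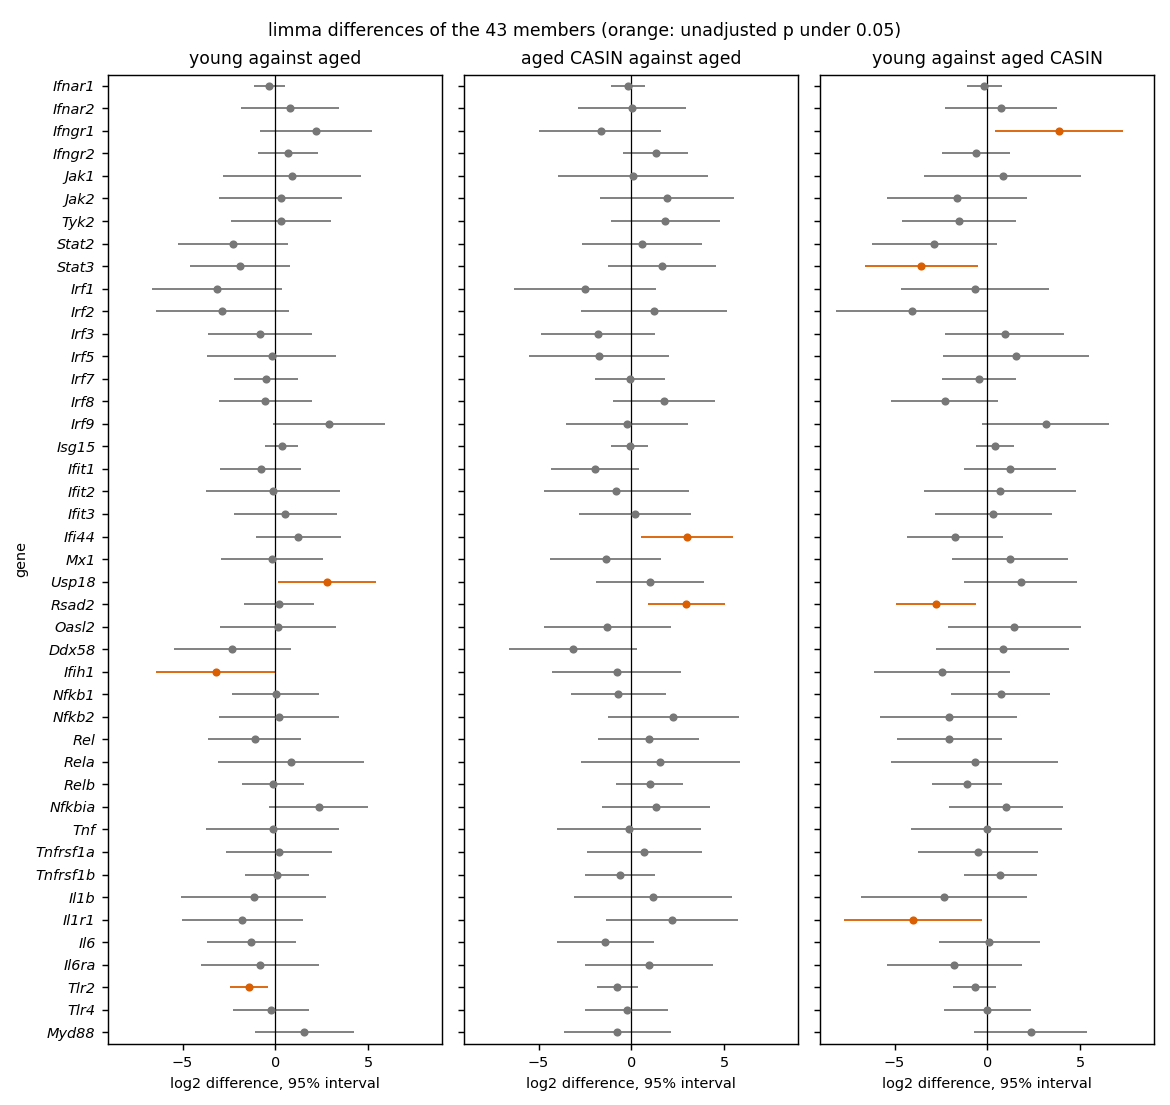
Log2 differences of the 43 genes in the 3 comparisons (points) with 95% limma intervals (lines), ordered by role, with 0 marked and unadjusted p under 0.05 in orange. Most intervals span 0 and several log2 units, and those of Ifnar1 and Isg15 are the narrowest around 0.

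Within a group, high values were unevenly spread over the samples. Among aged HSCs, replicate 3 held the highest value of 15 of the 43 genes (34.9%), compared with 18.4% of all genes. These included the cytokines Il1b at 7.51 and Tnf at 7.14, the regulatory factor Irf5 at 7.0, Ddx58 at 7.07, Ifih1 at 6.71 and Il1r1 at 6.98. In the other aged samples Tnf did not exceed 1.46, Il1b 0.67 and Irf5 1.54. Among young samples, replicate 3 held the highest value of 12 of the 33 genes detected in the group (36.4%, all genes 26.5%) and replicate 2 of 3 (9.1%, all genes 20.7%). CASIN replicate 2 held 20 of 43 (46.5%, all genes 61.3%) and CASIN replicate 1 held 13 (30.2%, all genes 19.1%), among them the NF-kB subunits Nfkb2 at 7.60, Rel at 5.70, Rela at 7.27 and Relb at 4.15. Aged replicate 3 and CASIN replicate 1 detected the fewest genes of their groups, at 50.8% and 30.4%. Without CASIN replicate 1, none of the 43 genes had an unadjusted p under 0.05 between young and CASIN-treated HSCs and 1 had between CASIN-treated and aged HSCs, and without aged replicate 3 there were 4 in the latter comparison. Of all 22548 genes, 1088, 1036 and 1000 had such a p in these cases.

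Further genes of the same pathways were examined as fixed lists. Of 49 other interferon pathway genes, none passed the adjusted p in any comparison in limma. At an unadjusted p under 0.05, none was higher (2.13% of all genes) and 2 were lower in young than in aged HSCs (3.20% of all genes), with a median difference of -0.24. These were Adar, the editing enzyme of double-stranded RNA (-3.77, adjusted p = 0.764, exact permutation p = 0.0238), and Mavs, the adaptor on which MDA5 and RIG-I act (-2.91, adjusted p = 0.764, exact permutation p = 0.0873). No young sample detected either gene. Between CASIN-treated and aged HSCs the guanylate-binding protein gene Gbp3 alone was higher (4.69, adjusted p = 0.948, exact permutation p = 0.0357; 2.48% of all genes) and none was lower. The difference of Gbp3 without CASIN replicate 2 was 6.71 (limma adjusted p = 0.193). In that fit 3 genes of the list were higher at an unadjusted p under 0.05, while 1619 of all 22548 genes had such a p in either direction. Between young and CASIN-treated HSCs Adar alone was lower (-4.09; 2.90% of all genes). Without CASIN replicate 2 its difference was -3.20 and no longer had an unadjusted p under 0.05, while 4 genes of the list were then lower. Of all 22548 genes, 1312 then had such a p in either direction.

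Of 51 other NF-kB, Toll-like and cytokine genes, again none passed the adjusted p in limma. Tnfsf10, which encodes the death receptor ligand TRAIL, had a lower mean in young than in aged HSCs (-4.13, adjusted p = 0.671, exact permutation p = 0.0317) and than in CASIN-treated HSCs (-3.90, adjusted p = 1, exact permutation p = 0.0286). The shared signalling chain of the interleukin 6 family, Il6st, had a lower mean in young than in aged HSCs (-2.97, adjusted p = 0.764, exact permutation p = 0.0873). Nfkbiz, an inhibitor-like regulator of NF-kB, had a higher mean in young than in CASIN-treated HSCs (4.36, adjusted p = 1, exact permutation p = 0.0571). The differences from CASIN-treated HSCs without CASIN replicate 2 were -4.57 for Tnfsf10 and 4.20 for Nfkbiz, the latter no longer with an unadjusted p under 0.05. These are 2 of the 51 genes lower in young than in aged HSCs (3.20% of all genes), and 1 lower (2.90%) and 1 higher (1.39%) in young than in CASIN-treated HSCs. No gene of this list had an unadjusted p under 0.05 between CASIN-treated and aged HSCs. Without CASIN replicate 2, 1 gene had, beside 1619 of all 22548 genes. The median differences of the list were -0.01, -0.29 and 0.16 in the 3 comparisons, beside -0.02, -0.04 and 0.09 over all genes.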

How the data were processed

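RNA-seq libraries of 4 young, 5 aged and 3 aged CASIN-treated HSC samples were analysed. Per the study's methods and the submitters' processing notes, the authors trimmed the reads (phred score above 20), aligned them to mm10 with TopHat and processed them with Cufflinks. They deposited log2 expression values, 1 per gene and sample. That these are quantile normalized was read from the values, which share a highest value of 16.09 in all samples. The step from Cufflinks to the log2 values is not given in the sources used here, nor is the use of strand or whether values are per gene length, so levels are not compared between genes. Quantile normalization removes differences in total RNA.

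All 22548 genes were tested without a filter with limma (version 3.58.1, R 4.3.3), using lmFit and eBayes for 1 two-sided fit of 12 samples in 3 groups, with Benjamini-Hochberg adjustment over all genes. Exact two-sided permutation tests over samples went through all groupings of the samples in Python 3.11.15, and figures used matplotlib 3.10.9. limma was also tested on values shuffled among samples within each gene, with 200 genes raised in the young samples. Of genes raised by 4 log2 units, 64 passed the adjusted p, together with 8 that were not raised. At 6 log2 units these numbers were 105 and 15. Shuffling removes the group differences in detection, so these rates need not hold for the real groups. The smallest exact p is 0.00794 for young against aged, 0.0179 for CASIN-treated against aged and 0.0286 for young against CASIN-treated samples. The sources describe the samples as biological repeats of pooled cells without naming the animals, so p-values measure the spread between these samples. No batch is given.

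The genes, the lists and the tests were chosen with earlier results of these data known. Values of every sample are given for genes with an unadjusted p under 0.05 in any comparison, genes detected in all 12 samples, and the gene with the highest mean in each role. Of the other pathway genes, at most the 3 with the smallest unadjusted p under 0.05 are named in each list and comparison. Other genes are named with detection and range, and where single values of them are given they were chosen after the values were seen. Gene positions are from GENCODE M21 (mm10) and promoters from RefSeq (GRCm38.p6). Il1r1, Irf9 and Myd88 overlap Gm38070, Rnf31 and Slc22a14 on the same strand, and further genes of the list overlap others. How reads from shared stretches were counted is not stated. Apart from leaving out each of the 12 samples, 10 alternatives were tried: a common lowest value (0.67), equal medians of genes found in every sample, genes detected in at least 6 samples, genes whose mean reached 3, an assumed pseudocount of 1 changed to 0.1, array weights, limma-trend, fits of 2 groups only, a detection covariate, and the replicate number as a block.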

Additional observations from a re-analysis of the deposited data

Results flagged for a closer look

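In 4 of the 31 gene and group pairs of 4 to 5 samples that could be examined, a single sample lay far from the rest of its group. Chance gives about 1 in 20 for values without a floor, a rate that does not apply to the first 3 of these, since a gene detected in 1 of 4 samples stands apart by construction. Young replicate 3 stood at 5.04 for Stat2 and at 3.51 for Il1r1, and young replicate 4 at 4.43 for Irf2, while the other young samples were at the lowest value for these genes. For Tlr2, aged replicate 4 stood at 2.79, above the 1.58 to 1.90 of the other aged samples. The report gives Tlr2 and Il1r1 an unadjusted p under 0.05, and the part of these samples in those values was not tested beyond leaving each out.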

How the results depend on the processing

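Under none of the alternatives or left-out samples did an interferon or inflammatory gene pass the adjusted p of 0.05 in limma, the smallest adjusted p being 0.45 for young against aged, 0.232 for CASIN-treated against aged and 0.293 for young against CASIN-treated HSCs. None of the 9 unadjusted calls turned in sign.

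For young against aged HSCs, the number of the genes below an unadjusted p of 0.05 (3) was 1 with a common lowest value, 1 of 30 genes detected in at least 6 samples, 0 of 12 genes with a mean of at least 3, 1 with limma-trend and 5 with the detection covariate. Between CASIN-treated and aged HSCs (2) it was 1 with limma-trend, and between young and CASIN-treated HSCs (4) it was 2. The cause was not tested, except that the filters tested fewer genes. With the replicate number as a block the last 2 counts were 1 (Irf5) and 1 (Irf2), so that all 6 calls named for these comparisons were lost, among them Ifi44 at 1.73 and Rsad2 at 1.78 between CASIN-treated and aged HSCs. Deviations from the group means, over all genes, had an r of -0.033 to 0.0576 in the 8 same-numbered pairs of different groups. In other pairs r was -0.0469 to 0.0332. The highest r was that of aged replicate 2 with CASIN replicate 2. With many genes at the floor and few samples, this check cannot exclude shared animals. The sources do not name the animals, so the numbers are not taken as a pairing.

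When single samples were left out, the counts were 2 to 4, 1 to 4 and 0 to 6, and the median differences -0.25 to 0.15, -0.22 to 0.23 and -0.26 to 0.03. The differences between young and aged HSCs were 1.36 to 3.58 for Usp18, -3.87 to -2.49 for Ifih1 and -1.53 to -1.22 for Tlr2. Usp18 kept an unadjusted p under 0.05 in 3 of the 12 fits, Ifih1 in 4 and Tlr2 in 12. Those between CASIN-treated and aged HSCs were 2.44 to 3.83 for Ifi44 and 2.22 to 3.97 for Rsad2. Those between young and CASIN-treated HSCs were 2.87 to 5.09 for Ifngr1, -5.33 to -2.15 for Stat3, -3.78 to -2.02 for Rsad2 and -5.17 to -2.45 for Il1r1.

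Above a log2 value of 3 in place of the lowest value, the mean number of the 43 genes per aged sample was 15 in place of 32.2. Because depth is unknown and low values are at the floor in the libraries with fewer detected genes, a gene listed there cannot be called absent.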
